A study of Homo sapiens with 12 samples.

Results

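The 10 genes described here encode enzymes of mitochondrial fatty acid oxidation: CPT1A, CPT2, ACADVL, ACADM, HADHA, HADHB, ACAA2, ECI1, DECR1 and ETFDH. They were taken by name from a list of oxidation enzymes, matched to Ensembl identifiers through GENCODE 29, and all 10 were found among the 58735 genes listed in both deposited tables. RNA-seq was made from 12 libraries of SK-BR-3, an established human breast cancer line with amplified ERBB2, and of its epirubicin-resistant derivative SK/EPI, from 4 groups with 3 libraries apiece. These were untreated SK-BR-3, untreated SK/EPI, SK/EPI transfected for 48 h with a control siRNA (SK/EPI-siControl) and SK/EPI transfected for 48 h with siRNA against BCRP, the efflux transporter encoded by ABCG2 (SK/EPI-siBCRP). SK/EPI is a line derived from SK-BR-3 by stepwise exposure to rising doses of epirubicin, so each group is a state of 1 cell background. The labels do not say whether the 3 libraries of a group came from separate cultures, so the p-values measure only the spread between these libraries, which may be technical. The study asked how the transcriptome of resistant cells differs from that of parental cells and what BCRP silencing changes in mitochondrial metabolism.

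Long-chain fatty acids are activated to acyl-CoA in the cytoplasm and enter mitochondria as carnitine esters. CPT1A, on the outer membrane, makes the ester and is the rate-controlling step. CPT2, on the inner membrane, turns it back into acyl-CoA. Acyl-CoA dehydrogenases such as ACADVL, for very long chains, and ACADM, for medium chains, begin each round of shortening and pass electrons through the electron transfer flavoprotein and ETFDH to the ubiquinone pool of the respiratory chain. For long chains, the remaining steps are carried out by the trifunctional protein, made of HADHA and HADHB subunits, while ACAA2 is a thiolase for shorter chains. ECI1 and DECR1 move or reduce the double bonds of unsaturated fatty acids so that the same route can take them. All 10 are protein-coding genes encoded in the nucleus. On GRCh38 as annotated by GENCODE 29, CPT2 (53196429 to 53214197) and ACADM (75724347 to 75787575) lie on the plus strand of chromosome 1, and HADHA (26190635 to 26244726, minus strand) and HADHB (26243170 to 26290468, plus strand) are neighbours on chromosome 2. ETFDH lies on chromosome 4 (158672125 to 158709623, plus strand) and CPT1A on chromosome 11 (68754620 to 68844410, minus strand). ECI1 lies on chromosome 16 (2239395 to 2252300, minus strand), ACADVL on chromosome 17 (7217125 to 7225273, plus strand) and ACAA2 on chromosome 18 (49782167 to 49813960, minus strand).

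The siRNAs against BCRP are shown first, because they define the silenced group. The study lists siBCRP#1 and siBCRP#2, and the sources used here do not say which was in the sequenced cells. The lower strand of each, which is complementary to the ABCG2 transcript, is printed with bases 2 to 8, its seed, in capitals:
siBCRP#1 lower strand: aUAACCAGcugauucaaaguauccc
siBCRP#2 lower strand: uAAUGAUGuccaagaagaagucugc
The matching 25 bases of ABCG2 (transcript ENST00000237612.7, GENCODE 29) lie in its coding sequence at positions 1368 to 1392 for siBCRP#1 and 1417 to 1441 for siBCRP#2, with capitals for bases identical to the upper strand:
ABCG2 site of siBCRP#1: GGGATACTTTGAATCAGCTGGTTAT
ABCG2 site of siBCRP#2: GCAGACTTCTTCTTGGACATCATTA
The letters CTGGTTA, the seed match of siBCRP#1, occur in the longest protein-coding transcript of 13.9% of 19684 genes, and among the 10 enzymes in ETFDH alone, at position 919 in the coding sequence. CATCATT, the seed match of siBCRP#2, occurs in 24.7% of genes and among the 10 in ACAA2, ACADVL and HADHA. The longest stretch that any of the 10 enzymes shared with a target site was 12 bases, between CPT2 and siBCRP#1, before the coding sequence of the longest CPT2 transcript (ENST00000371486.3, positions 20 to 44 shown, shared bases in capitals):
CPT2 stretch: gaggTACTTTGAATCAttacgatct
A stretch of at least 12 bases of this target occurred in 0.427% of genes (84 of 19684). No member shared more than 9 bases with the target of siBCRP#2, and 26.1% of genes shared at least that many. These matches describe letters, and their part in the values below was not tested.

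The deposited values are FPKM, fragments scaled to exon length and to library total, so levels can be compared between genes per length. Reads computed back from FPKM and exon length numbered 15830381 to 20545811 on genes per library. The transcript of ABCG2, the silenced gene, stood at 0.0750, 0.0220 and 0.0520 FPKM in SK-BR-3 libraries 1 to 3 and at 33.9, 35.9 and 32.7 FPKM in SK/EPI. It stood at 32.5, 32.7 and 33.7 FPKM in SK/EPI-siControl and at 2.84, 3.47 and 2.91 FPKM in SK/EPI-siBCRP. These levels set the SK-BR-3 and SK/EPI-siBCRP libraries apart, as labelled. SK/EPI and SK/EPI-siControl overlapped, so ABCG2 cannot tell their labels from each other. All 6 markers of ERBB2-amplified luminal cells were at 1 FPKM or more in every group, and ERBB2 itself stood at 652 to 662 FPKM in SK-BR-3 and at 128 to 136 FPKM in SK/EPI. Markers of other cells also moved with the groups. The summed level of 4 leukocyte markers was 0.840 to 0.913 FPKM in SK-BR-3, 26.7 to 28.4 in SK/EPI, 6.49 to 7.56 in SK/EPI-siControl and 7.86 to 8.79 in SK/EPI-siBCRP, with CD14 the marker at 1 FPKM or more outside SK-BR-3, MS4A1 listed at 0 and PTPRC at no more than 0.0669 FPKM in any library. For 3 endothelial markers the sums were 6.67 to 6.99, 27.0 to 28.1, 13.9 to 14.1 and 22.3 to 22.5 FPKM in the same order, and CDH5 was the marker at 1 FPKM or more. No more than 1 of 5 fibroblast markers reached 1 FPKM in any group. The part of these markers in the results was not tested. In bulk RNA, a lower level in each cell and fewer cells that express a gene cannot be told apart.

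**Figure D1:**
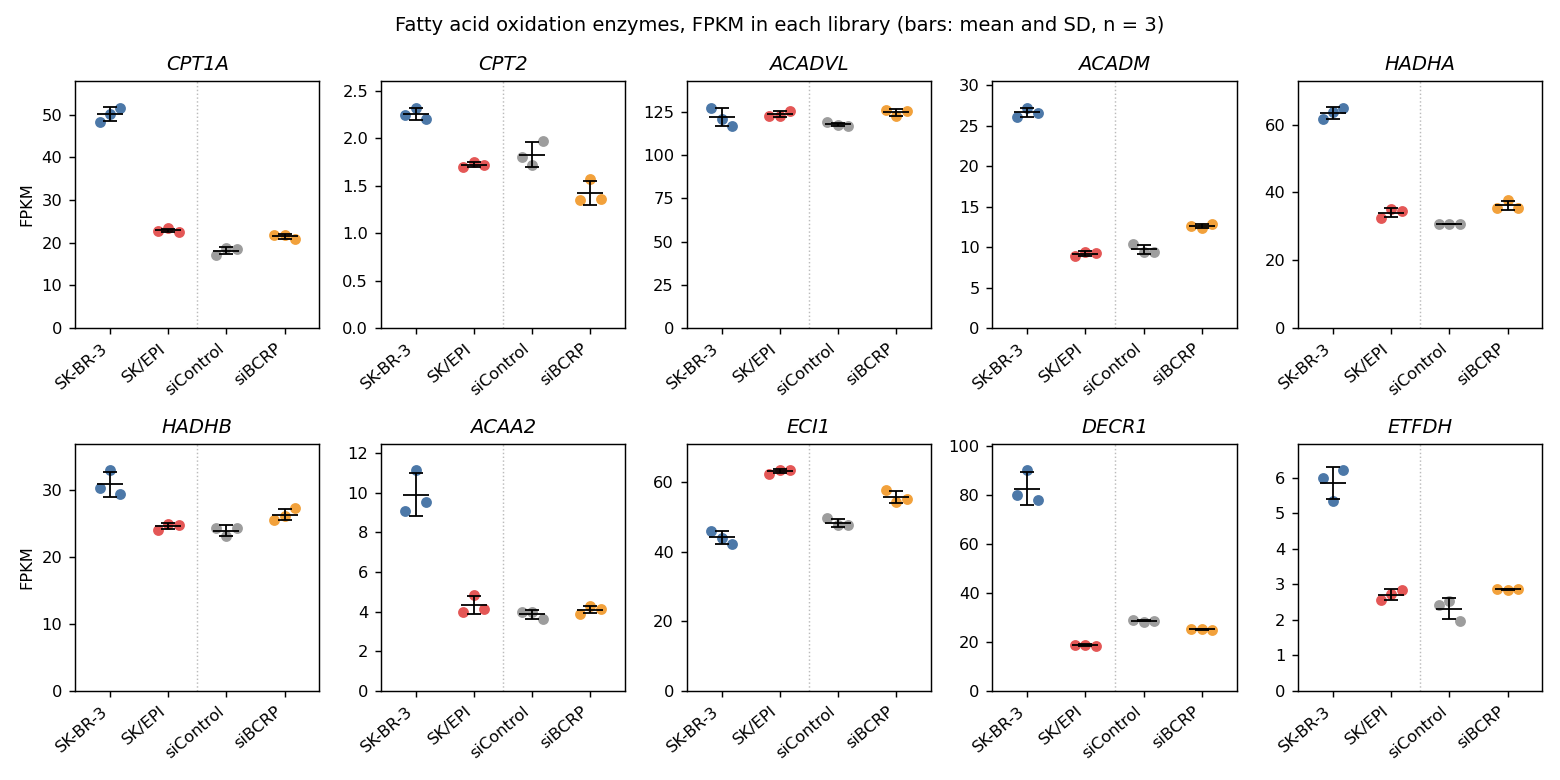
FPKM of each of the 10 enzymes (y axis, linear from 0) in the 3 libraries of each group (points), with the mean and SD (bars); the dotted line separates the 2 deposited tables, and SK/EPI-siControl and SK/EPI-siBCRP are shortened to siControl and siBCRP. In SK-BR-3 against SK/EPI, DECR1 separates most (77.9 to 90.2 against 18.4 to 18.9 FPKM), ECI1 is the enzyme that stands higher in SK/EPI, and ACADVL overlaps.

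ACADVL was the most abundant of the 10 transcripts per length in every group, at 122 ± 5.29 FPKM in SK-BR-3, 124 ± 1.70 in SK/EPI, 118 ± 1.01 in SK/EPI-siControl and 125 ± 1.92 in SK/EPI-siBCRP (mean ± SD, n = 3). CPT2 was the lowest per length in every group, at 1.43 to 2.26 FPKM as group means. The length is that of all exonic bases of a gene, 10452 for CPT2 and 4493 for ETFDH. Their longest coding transcripts hold 3094 and 3282 bases. In SK/EPI, CPT2 held 330 to 349 reads a library and ETFDH 221 to 240, so their order depends on the length used. In SK-BR-3, ACADVL was followed by DECR1, HADHA, CPT1A, ECI1, HADHB, ACADM, ACAA2, ETFDH and CPT2. In SK/EPI, DECR1 went from rank 2 to rank 6 and CPT1A from 4 to 5, while ECI1 went from rank 5 to rank 2 and HADHB from 6 to 4. In no group did the libraries of neighbours in the order overlap, although ETFDH (1.97 FPKM in its lowest library) and CPT2 (1.97 FPKM in its highest) met in SK/EPI-siControl. The summed FPKM of all 10 was 437.7 ± 10.1 in SK-BR-3 and 304.9 ± 3.68 in SK/EPI, and without ACADVL 315.8 ± 9.70 and 181.2 ± 3.23. It was 285.4 ± 2.64 in SK/EPI-siControl and 310.7 ± 1.81 in SK/EPI-siBCRP, and without ACADVL 167.5 ± 1.72 and 185.9 ± 0.762 (mean ± SD, n = 3). The 2 tables may have been normalized separately, so levels set across them are given side by side only, and every test was made within a table.

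SK/EPI was first compared with SK-BR-3. Of the 10 enzymes, 8 were downregulated in resistant cells, 1 (ECI1) was upregulated and 1 (ACADVL) did not pass the test (limma on log2(FPKM + 1), Benjamini-Hochberg adjusted p under 0.05). Most genes moved in this comparison: 37% of 15823 genes fell and 37.9% rose, or 74.9% in either direction. The median log2 fold change was -0.88 over the 10 enzymes and 0.01 over all genes tested. The libraries of the 2 groups did not overlap for the 9 enzymes called, and 38.3% of all genes lay wholly below and 39.4% wholly above.

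Both carnitine palmitoyltransferases fell, and by unequal amounts. CPT1A stood at 48.4, 50.1 and 51.7 FPKM in SK-BR-3 and at 22.7, 23.3 and 22.5 FPKM in SK/EPI. Every resistant library was below every parental one, a 2.19-fold lower mean with a log2 fold change of -1.10 ± 0.03 (SE, limma adjusted p = 4.37e-08). CPT2 stood at 2.25, 2.33 and 2.20 FPKM in SK-BR-3 and at 1.70, 1.75 and 1.72 FPKM in SK/EPI. Its groups also did not overlap, with a log2 fold change of -0.26 ± 0.05 (limma, adjusted p = 0.00217). Of the exonic bases of CPT2, 11.96% are shared with other genes, mostly AL606760.2 on the opposite strand, and the counting is not stated to use strand. The CPT1A to CPT2 ratio of FPKM, which does not depend on library scaling, was 21.5, 21.6 and 23.5 in SK-BR-3 and 13.3, 13.4 and 13.1 in SK/EPI. Its size rests on the exonic lengths behind the FPKM, 6565 bases for CPT1A and 10452 for CPT2. The ratio was lower in all resistant libraries, with a log2 difference of -0.74 (exact two-sided permutation test, p = 0.1, the smallest that 3 against 3 allows).

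The 2 acyl-CoA dehydrogenases differed from each other in SK/EPI. ACADM, whose loss causes the most common inherited defect of the pathway, stood at 26.1, 27.2 and 26.5 FPKM in SK-BR-3 and at 8.93, 9.44 and 9.24 FPKM in SK/EPI. That was a 2.89-fold lower mean with no overlap (log2 fold change -1.44 ± 0.04, limma adjusted p = 1.23e-08). ACADVL stood at 128, 121 and 117 FPKM in SK-BR-3 and at 123, 123 and 126 FPKM in SK/EPI. These overlapped, and the log2 fold change of 0.02 had a 95% interval of -0.07 to 0.11 (limma, adjusted p = 0.640). Recovered reads on genes came to 99.8 to 101% of the total behind the FPKM in SK-BR-3 and to 92.8 to 95.4% in SK/EPI, and ACADVL was called upregulated when the values were rescaled to those reads (log2 fold change 0.11, adjusted p = 0.0349). ETFDH, which collects the electrons of all these dehydrogenases, stood at 6.003, 5.36 and 6.22 FPKM in SK-BR-3 and at 2.57, 2.72 and 2.85 FPKM in SK/EPI. It fell 2.16-fold (log2 fold change -0.88 ± 0.06, limma adjusted p = 6.04e-06). PPID, on the opposite strand, covers 10.9% of its exonic bases.

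The subunits of the trifunctional protein fell by different amounts. HADHA, which holds the hydratase and dehydrogenase activities, stood at 61.6, 63.6 and 65.0 FPKM in SK-BR-3 and at 32.5, 35.1 and 34.6 FPKM in SK/EPI (log2 fold change -0.88 ± 0.04, limma adjusted p = 3.14e-07). HADHB, the thiolase subunit, stood at 30.3, 33.0 and 29.4 FPKM in SK-BR-3 and at 24.1, 24.9 and 24.8 FPKM in SK/EPI (log2 fold change -0.31 ± 0.05, limma adjusted p = 0.000358). Neither gene's groups overlapped. The HADHA to HADHB ratio of FPKM was 2.03, 1.93 and 2.21 in SK-BR-3 and 1.35, 1.41 and 1.39 in SK/EPI, lower in all resistant libraries (log2 difference -0.57, exact two-sided permutation test, p = 0.1, the smallest possible). ACAA2, the other thiolase, stood at 9.07, 11.1 and 9.51 FPKM in SK-BR-3 and at 3.99, 4.85 and 4.12 FPKM in SK/EPI, a 2.29-fold lower mean (log2 fold change -1.03 ± 0.09, limma adjusted p = 1.45e-05). AC090227.1, on the same strand, covers 7.59% of the exonic bases of ACAA2.

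HADHA and HADHB share a start region, which is why their sequence is of interest beside the ratio. They are transcribed away from each other on chromosome 2, with RefSeq start sites 307 bases apart at 26244632 (HADHA, minus strand) and 26244939 (HADHB, plus strand). In GENCODE 29 the spans of the genes overlap, HADHB beginning at 26243170 and HADHA ending at 26244726. The region printed below therefore lies between them by the RefSeq starts only. The start windows of the genes, described below, overlap between the RefSeq starts, and only the overlap was searched for exons. Its longest part free of any GENCODE 29 exon is the 21 bases at chr2:26244727-26244747 (GRCh38.p14, plus strand), of which 81.0% are G or C:
region between HADHA and HADHB: ccggccccttagccctgcccc
RefSeq start windows, from 250 bases before to 50 after a start, were found for 8 of the 10 enzymes, all but DECR1 and ETFDH. GGGCGG, the GC box, was searched on both strands and occurred in the windows of 6 enzymes (ACADM, ACADVL, CPT2, ECI1, HADHA and HADHB) and in 45% of all 35116 windows. CCAAT occurred in none of the 8 and in 34.6% of windows, and AGGTCA, the core letters bound by many nuclear receptors, in none of the 8 and in 13.8%. The same holds for CACGTG (7.26% of windows), the palindromic site of NRF1 (1.24%), TCAAGGTCA (0.353%, which holds AGGTCA) and the direct repeat of AGGTCA with a base between its copies (0.0228%). No match says only that these letters are not in these windows.

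The enzymes for unsaturated chains moved in opposite directions. DECR1, which reduces conjugated double bonds, stood at 79.9, 90.2 and 77.9 FPKM in SK-BR-3 and at 18.9, 18.8 and 18.4 FPKM in SK/EPI. It had the largest fold change of the 10, a 4.42-fold lower mean (log2 fold change -2.08 ± 0.05, limma adjusted p = 1.6e-08). ECI1, the isomerase that shifts double bonds into the position the pathway uses, stood at 46.0, 43.9 and 42.3 FPKM in SK-BR-3 and at 62.4, 63.3 and 63.4 FPKM in SK/EPI. All 3 resistant libraries were above the parental ones, by 1.43-fold in the mean (log2 fold change 0.51 ± 0.04, limma adjusted p = 5.41e-06).

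SK/EPI-siBCRP was then compared with SK/EPI-siControl. These 6 libraries are all different from the 6 above. After BCRP silencing, 7 of the 10 enzymes were upregulated, 2 (CPT2 and DECR1) were downregulated and 1 (ACAA2) did not pass the test. As background, 19.4% of 16298 genes rose and 18.7% fell, or 38.1% in either direction. The changes were small, with log2 fold changes between -0.22 and 0.34, a median of 0.17 over the 10 enzymes and of 0.00 over all genes tested. These are changes of FPKM + 1, which shrinks those of the low enzymes CPT2 and ETFDH. The groups did not overlap for the 9 enzymes called, and 25.5% of all genes lay wholly above and 25.4% wholly below.

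ACADM rose most of the 10, from 10.4, 9.44 and 9.36 FPKM in SK/EPI-siControl to 12.6, 12.3 and 12.8 FPKM in SK/EPI-siBCRP. Every silenced library was above every control library, by 29.5% in the mean (log2 fold change 0.34 ± 0.04, limma adjusted p = 0.000744). CPT1A stood at 17.2, 18.7 and 18.4 FPKM in control and 21.8, 21.9 and 20.8 FPKM in silenced cells, a rise of 18.6% (log2 fold change 0.23 ± 0.04, limma adjusted p = 0.00251). HADHA stood at 30.8, 30.7 and 30.8 FPKM in control and 35.4, 37.7 and 35.5 FPKM in silenced cells, a rise of 17.6% (log2 fold change 0.23 ± 0.03, limma adjusted p = 0.000767). All 3 of these enzymes had fallen in SK/EPI against SK-BR-3. Side by side, their means in SK-BR-3 and SK/EPI-siBCRP were 26.6 and 12.6 FPKM for ACADM, 50.1 and 21.5 for CPT1A, and 63.4 and 36.2 for HADHA. ECI1, higher in SK/EPI than in SK-BR-3, rose within this comparison too, from 49.5, 47.7 and 47.5 FPKM to 57.6, 54.1 and 55.2 FPKM (log2 fold change 0.20 ± 0.03, limma adjusted p = 0.00172). Side by side, its mean was 63.0 FPKM in SK/EPI, 48.3 in SK/EPI-siControl and 55.6 in SK/EPI-siBCRP, so the silenced cells did not stand above SK/EPI.

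HADHB, ACADVL and ETFDH also passed the test, and each lost the call without some libraries. HADHB stood at 24.4, 23.1 and 24.4 FPKM in control and 25.6, 26.2 and 27.3 FPKM in silenced cells, a rise of 9.94% (log2 fold change 0.13 ± 0.03, limma adjusted p = 0.0204). Its adjusted p was 0.0609 without SK/EPI-siControl replicate 2, 0.0513 without SK/EPI-siBCRP replicate 2 and 0.0594 without SK/EPI-siBCRP replicate 3. ACADVL stood at 119, 118 and 117 FPKM in control and 126, 123 and 126 FPKM in silenced cells, a rise of 5.88% (log2 fold change 0.08 ± 0.02, limma adjusted p = 0.0180). Its adjusted p was 0.0589 without SK/EPI-siControl replicate 2, 0.0604 without SK/EPI-siControl replicate 3 and 0.0533 without SK/EPI-siBCRP replicate 3. ETFDH stood at 2.43, 2.54 and 1.97 FPKM in control and 2.86, 2.85 and 2.87 FPKM in silenced cells, a rise of 23.6% in the mean FPKM (log2 fold change 0.22 ± 0.07, limma adjusted p = 0.0480). It rests on 175 to 288 reads a library, and its call was lost without any of 5 of the 6 libraries: the adjusted p was 0.0682 without SK/EPI-siControl replicate 1, 0.0945 without SK/EPI-siControl replicate 3, and 0.102, 0.106 and 0.106 without SK/EPI-siBCRP replicates 1, 2 and 3. With any single library left out, 4 to 6 enzymes were called upregulated, the fewest without SK/EPI-siBCRP replicate 3. Calls over all 16298 genes also dropped in those fits, from 3163 upregulated with every library to between 2611 and 2771.

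DECR1 and CPT2 fell within this comparison too. Side by side, the mean of DECR1 was 18.7 FPKM in SK/EPI, 28.7 in SK/EPI-siControl and 25.2 in SK/EPI-siBCRP, so the silenced cells did not stand below SK/EPI. DECR1 lies on the plus strand of chromosome 8, at 90001405 to 90052092. DECR1 stood at 28.9, 28.3 and 28.7 FPKM in control and 25.3, 25.4 and 25.1 FPKM in silenced cells, a mean lower by 1.14-fold with no overlap (log2 fold change -0.18 ± 0.02, limma adjusted p = 0.000587). CPT2 stood at 1.80, 1.72 and 1.97 FPKM in control and 1.35, 1.57 and 1.37 FPKM in silenced cells, a mean FPKM lower by 21.9% (log2 fold change -0.22 ± 0.06, limma adjusted p = 0.0295). It rests on 274 to 429 reads a library, and its call was lost without SK/EPI-siControl replicate 1 (adjusted p = 0.0651), SK/EPI-siControl replicate 3 (0.0903), SK/EPI-siBCRP replicate 1 (0.0850) or SK/EPI-siBCRP replicate 3 (0.0853), which leaves 1 enzyme called downregulated, DECR1. ACAA2 stood at 3.99, 3.98 and 3.603 FPKM in control and 3.90, 4.26 and 4.13 FPKM in silenced cells. Its groups overlapped, and the log2 fold change of 0.07 had a 95% interval of -0.06 to 0.20 (limma, adjusted p = 0.356).

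**Figure D2:**
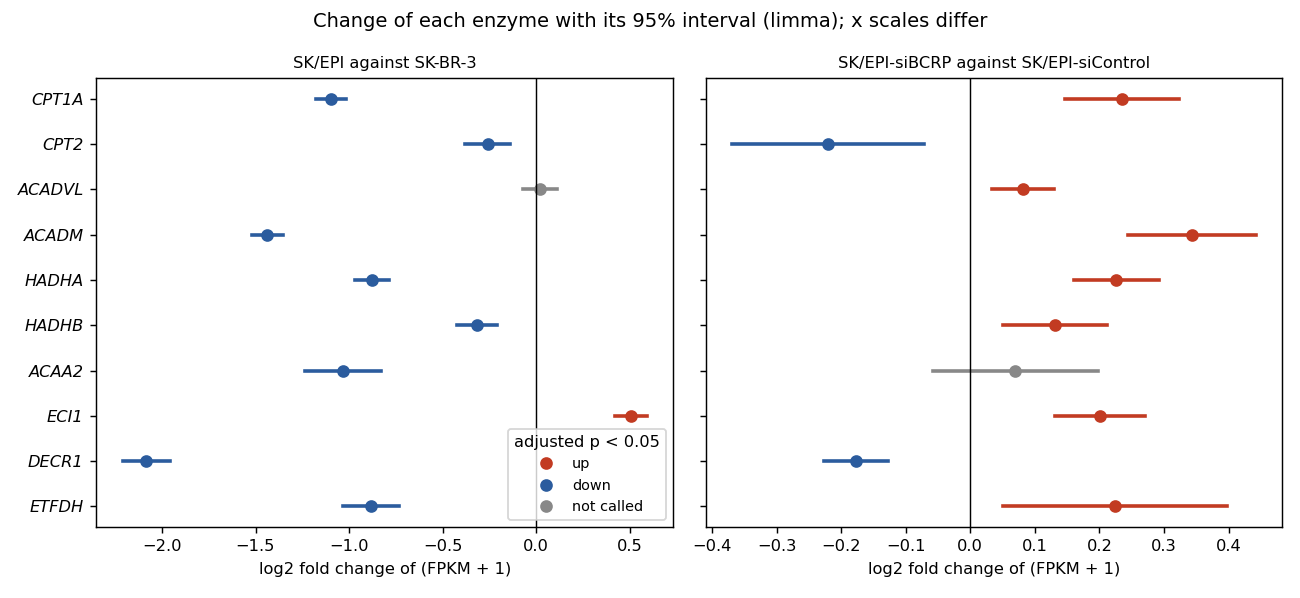
Log2 fold change of (FPKM + 1) of each enzyme (points) with its 95% interval from limma (lines), for SK/EPI against SK-BR-3 on the left and SK/EPI-siBCRP against SK/EPI-siControl on the right, coloured by call at an adjusted p under 0.05. The x scales differ: the left panel runs from -2.08 for DECR1 to 0.51 for ECI1, and the right from -0.22 for CPT2 to 0.34 for ACADM.

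Seen across both comparisons, 5 enzymes (CPT1A, ACADM, HADHA, HADHB and ETFDH) were downregulated in SK/EPI and upregulated after silencing. Over all genes tested, 37% fell in the first comparison and 19.4% rose in the second. The share of all genes that did both was not counted, so the 5 cannot be set against it. CPT2 and DECR1 were downregulated in both, and ECI1 was upregulated in both. ACAA2 was downregulated in the first alone, and ACADVL was upregulated in the second alone. The calls of HADHB, ETFDH, CPT2 and ACADVL after silencing were each lost without some libraries. The difference between the comparisons was not tested. CPT1A to CPT2 was 9.57, 10.9 and 9.34 in control and 16.2, 13.9 and 15.2 in silenced cells, higher in all silenced libraries (log2 difference 0.60, exact two-sided permutation test, p = 0.1, the smallest possible). HADHA to HADHB was 1.26, 1.33 and 1.26 in control and 1.39, 1.44 and 1.30 in silenced cells, and these overlapped (log2 difference 0.10, exact two-sided permutation test, p = 0.2).

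**Figure D3:**
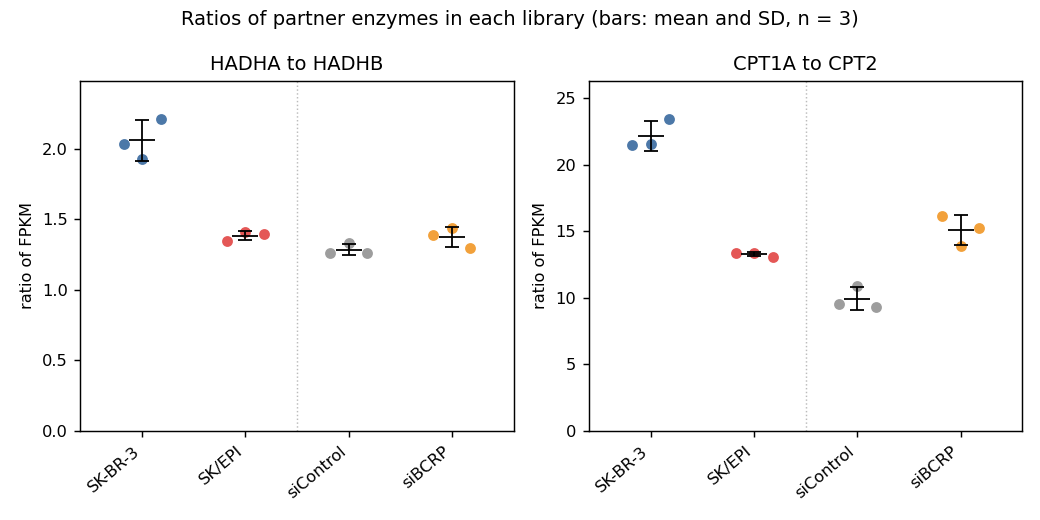
Ratio of FPKM (y axis, from 0) of HADHA to HADHB and of CPT1A to CPT2 in each library (points), with the mean and SD of 3 libraries (bars); the dotted line separates the 2 tables. Both ratios are lower in all SK/EPI libraries than in all SK-BR-3 libraries, while after silencing CPT1A to CPT2 is higher in all libraries and HADHA to HADHB overlaps.

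Genes around the 10 enzymes were read from 4 further lists of 56 genes, of which 48 were tested in each comparison. In SK/EPI against SK-BR-3, 9 of the 14 other mitochondrial oxidation genes tested were downregulated, 1 was upregulated and 4 were not called (median log2 fold change -0.52). Over all 15823 genes tested, 37% fell and 37.9% rose. CRAT, which moves acetyl groups between CoA and carnitine, fell from 14.1 ± 0.221 to 2.37 ± 0.215 FPKM (log2 fold change -2.17 ± 0.06, limma adjusted p = 1.54e-08). ECHS1, the short-chain enoyl-CoA hydratase, fell from 113 ± 6.39 to 55.5 ± 5.31 FPKM (log2 fold change -1.02 ± 0.07). PCCB, a subunit of propionyl-CoA carboxylase, was the gene that rose, from 7.48 to 8.74 FPKM, and 22.1% of its exonic bases are shared with STAG1.

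For fatty acid uptake and activation, 6 of 10 tested genes were upregulated, 3 were downregulated and 1 was not called (median log2 fold change 0.26). The shares over all genes tested were 37.9% up and 37% down. SLC27A2, a very-long-chain acyl-CoA synthetase and transporter, rose from 0.385 ± 0.126 to 13.3 ± 0.788 FPKM (log2 fold change 3.37 ± 0.08, limma adjusted p = 1.07e-08), and 19.9% of its exonic bases are shared with ATP8B4 on the opposite strand. ACSL4, the synthetase that prefers arachidonic acid, rose from 0.242 ± 0.0198 to 6.93 ± 0.2998 FPKM (log2 fold change 2.67 ± 0.06, limma adjusted p = 5.61e-09). In contrast, the transporter SLC27A4 fell from 38.1 ± 0.698 to 13.8 ± 0.808 FPKM and the synthetase ACSL3 from 25.6 to 13.9 FPKM (log2 fold changes -1.40 ± 0.04 and -0.84 ± 0.03).

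Of 12 regulators of oxidation tested, 5 rose, 5 fell and 2 were not called (median log2 fold change 0.04), near the 37.9% and 37% of all genes tested. PDK4, the kinase that shuts pyruvate out of the citric acid cycle, rose from 1.36 to 5.05 FPKM and PLIN2, a lipid droplet coat protein, from 2.73 ± 0.489 to 9.03 ± 0.183 FPKM (log2 fold changes 1.36 ± 0.07 and 1.43 ± 0.09). ANGPTL4, a secreted inhibitor of lipoprotein lipase, fell from 9.53 ± 0.573 to 0.446 ± 0.164 FPKM, and the nuclear receptor PPARD from 10.4 to 5.68 FPKM (log2 fold changes -2.87 ± 0.09 and -0.78 ± 0.05). PDK4, PLIN2 and ANGPTL4 are all known targets of peroxisome proliferator-activated receptors. They were named for the size of their changes, and the part of these receptors was not tested.

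Peroxisomal oxidation, which shortens chains too long for mitochondria, had 4 of 12 tested genes upregulated, 5 downregulated and 3 not called (median log2 fold change 0.09). Those counts were near the shares over all genes tested, 37.9% up and 37% down. The thiolase ACAA1 fell from 77.1 ± 3.99 to 10.7 ± 0.338 FPKM, 7.20-fold (log2 fold change -2.74 ± 0.04, limma adjusted p = 1.58e-09), and 21.2% of its exonic bases are shared with other genes, mostly DLEC1. ABCD3, a peroxisomal membrane transporter of fatty acids, fell from 13.4 to 5.58 FPKM (log2 fold change -1.13 ± 0.05). DECR2, the peroxisomal counterpart of DECR1, rose from 4.43 to 11.8 FPKM while DECR1 fell (log2 fold change 1.24 ± 0.05, limma adjusted p = 2.04e-07), and 14.1% of its exonic bases are shared with NME4. CROT, which makes carnitine esters for export from peroxisomes, rose from 4.46 ± 0.361 to 8.67 ± 0.758 FPKM (log2 fold change 0.82 ± 0.07).

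After BCRP silencing, 13 of the 48 genes tested were upregulated, 9 were downregulated and 26 were not called. Over all 16298 genes tested, 19.4% rose and 18.7% fell, so the count of falls was near that share. Among the other mitochondrial genes, 4 of 14 rose and 2 fell, including the dehydrogenase ACADSB from 3.34 to 4.20 FPKM and ECI2, an isomerase related to ECI1, from 4.30 to 5.27 FPKM (log2 fold changes 0.26 ± 0.04 and 0.24 ± 0.05). Of the exonic bases of ECI2, 29.8% are shared with other genes, mostly C6orf201 on the opposite strand. CRAT fell within this comparison too, from 3.16 ± 0.320 to 2.15 ± 0.218 FPKM (log2 fold change -0.40 ± 0.08, limma adjusted p = 0.00622), as did MCEE, the epimerase of the propionate route, from 5.24 to 4.30 FPKM. In uptake and activation, 5 of 10 rose and 2 fell. SLC27A4 rose from 9.43 ± 0.331 to 15.1 ± 0.610 FPKM (log2 fold change 0.62 ± 0.04, limma adjusted p = 3.44e-05) and SLC27A2 from 6.86 to 9.44 FPKM, while the fatty acid binding protein FABP5 fell from 3.27 to 2.50 FPKM and the carnitine transporter SLC22A5 from 1.75 to 1.42 FPKM.

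Of 13 regulators tested after silencing, 4 rose, 2 fell and 7 were not called, beside 19.4% up and 18.7% down over all genes tested. PPARGC1B, a coactivator of mitochondrial gene expression, rose from 3.90 to 5.78 FPKM, and ACACB, whose product malonyl-CoA inhibits CPT1 enzymes, rose from 1.59 to 2.50 FPKM (log2 fold changes 0.47 ± 0.04 and 0.43 ± 0.06). PRKAA1, a catalytic subunit of AMP-activated protein kinase, fell from 30.8 ± 0.345 to 20.7 ± 0.328 FPKM (log2 fold change -0.55 ± 0.02, limma adjusted p = 6.81e-06), and PDK4 fell from 2.21 to 1.69 FPKM. Of 11 peroxisomal genes tested, 3 fell and 8 were not called. CROT fell from 9.12 ± 0.0710 to 6.58 ± 0.189 FPKM (log2 fold change -0.42 ± 0.03, limma adjusted p = 0.000102).

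**Figure D4:**
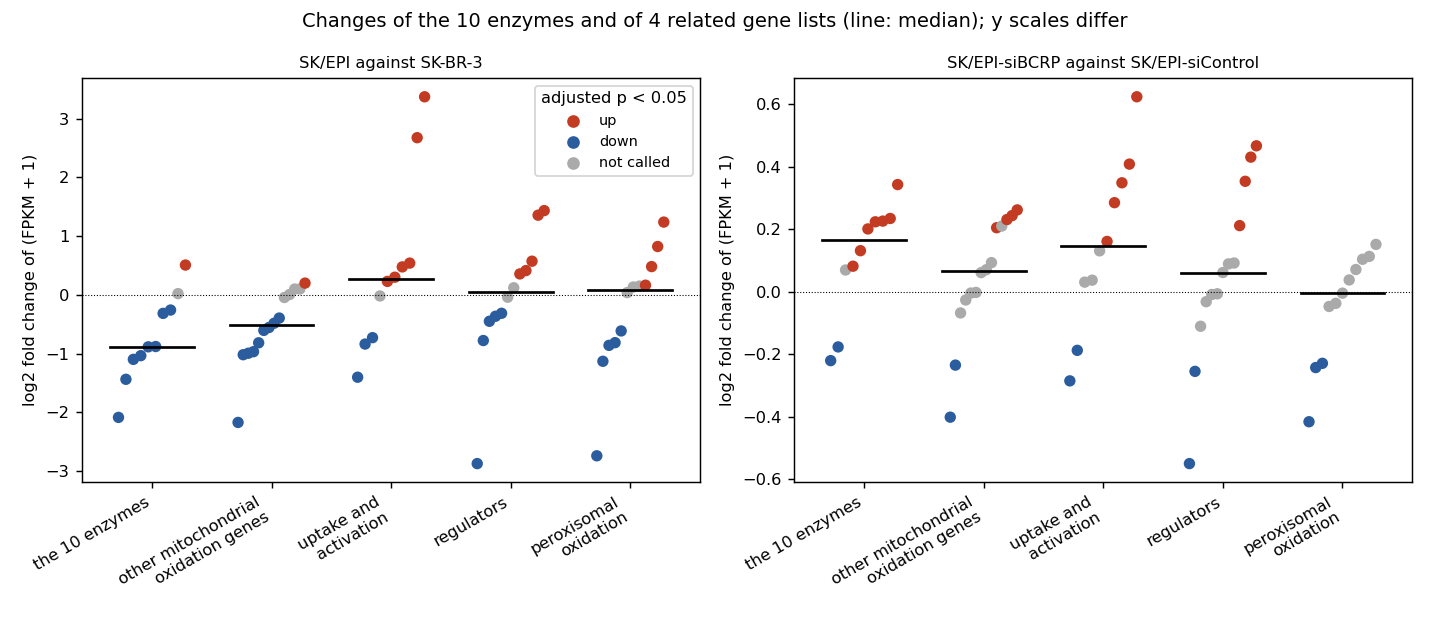
Log2 fold change of (FPKM + 1) of each tested gene (points) in the 10 enzymes and 4 related lists, with the median of each list (line), coloured by call at an adjusted p under 0.05, for each comparison. On the left the medians are -0.88 for the 10 enzymes, -0.52 for other mitochondrial genes, 0.26 for uptake and activation, 0.04 for regulators and 0.09 for peroxisomal genes; the y scales of the panels differ.

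The genes whose within-table pattern lay nearest to those of CPT1A and HADHA were found among 15152 genes tested in both tables. The measure was the root mean square difference of log2(FPKM + 1) over the 12 libraries, after each gene's mean within its own table was subtracted, so it compares the differences within each table and not the level between tables. Nearest to CPT1A were SLC29A4 (0.0426), PGK1, a glycolytic kinase (0.0474), and BAG3, a co-chaperone (0.0475), against a root mean square of 0.398 for CPT1A about its own table means. SLC29A4 stood at 2.92 FPKM in SK-BR-3 and 0.841 in SK/EPI, a level at which the added 1 shrinks its fold changes. HADHA, the nearest of the other enzymes to CPT1A, ranked 108 (0.0859). Nearest to HADHA were TMBIM1 (0.0354), WWP1, a ubiquitin ligase (0.0365), and ST14, a membrane protease (0.0376), and ETFDH was the nearest enzyme at rank 138 (0.0726). Between the tables these genes need not move alike: from SK/EPI to SK/EPI-siControl the mean of PGK1 went from 72.6 to 91.4 FPKM and that of CPT1A from 22.9 to 18.1 FPKM. These distances are descriptions and were not tested.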

How the data were processed

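Poly-A selected RNA from 12 libraries was sequenced. FPKM of 58735 genes were deposited by the authors as 2 tables, with SK-BR-3 and SK/EPI in the first and the siRNA-treated SK/EPI groups in the second. The submitters' processing notes name HISAT2 2.0.5, featureCounts 1.5.0-p3, DESeq2 1.16.1 and the build hg38; the annotation and any use of strand are not given in the sources used here. FPKM multiplied by GENCODE 29 exon lengths gave whole reads for 100% of values (tolerance 0.05), 15830381 to 20545811 per library. A gene entered the tests if 3 or more libraries held 10 reads or more, scaled to median depth, and its reads summed to 15 or more. The fit used limma 3.58.1 (R 4.3.3; lmFit, eBayes with trend) on log2(FPKM + 1), within each table, with Benjamini-Hochberg adjustment over all genes tested and a threshold of 0.05. Fold changes on this scale understate the change of genes near 1 FPKM. Ratios were tested by an exact permutation test.

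The members and lists were chosen with earlier results of these data known. Named genes were all 10 enzymes, and from each further list up to 2 of the largest rises and 2 of the largest falls with adjusted p under 0.05 and no overlap. A result that this rule named is not reported here. The fit was tested on simulated data with 200 changed genes, and recovery was counted among those at a mean of 1 FPKM or more. It recovered 27.7%, 72.7% and 96.4% of log2 changes of 0.3, 0.6 and 1 for SK/EPI against SK-BR-3 (15687 genes). For the silencing comparison (16280 genes) it recovered 17.9%, 77.8% and 93.3%. In the data 74.9% and 38.1% of genes were called, far more than were changed in the simulation, so these rates do not carry over. Alternatives were other scalings, filters and pseudocounts, limma voom on the recovered reads, a replicate block, stricter thresholds and leaving out each library. Sequences came from the study's list of oligonucleotides, GENCODE 29 transcripts and RefSeq start windows (GRCh38.p14).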

Additional observations from a re-analysis of the deposited data

How the results depend on the processing

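Over all alternatives, 254 of the recomputed fold changes of the enzymes kept their direction and side of the threshold, 22 lost the call, 3 gained it and 1 changed sign. For SK/EPI against SK-BR-3, 2 enzymes were called upregulated when values were scaled to reads on genes, when the mitochondrial chromosome was left out of the total and under limma voom, the added one being ACADVL (log2 fold change 0.11, 0.12 and 0.11). With a log2 fold change of at least 1 required, 0 enzymes were upregulated and 4 downregulated, with 5 and 6 of the related genes and 1245 and 1033 of 15823 genes in all. Without single libraries ACADVL ranged from -0.00702, without SK-BR-3 replicate 3 (adjusted p = 0.877, limma), to 0.0542. These scalings also moved the balance over all genes, from 6002 up and 5852 down to 6697 and 5263, 6842 and 5148, and 6804 and 5324. After silencing, 4 enzymes were upregulated and 1 downregulated at an adjusted p under 0.01 (2020 and 1833 of 16298 genes in all), and 0 and 0, with 0 and 0 related genes, at a log2 fold change of at least 1 (11 and 56 of all genes). With no filter 5 were upregulated and 1 downregulated (2451 and 2203 of 34542 genes in all), CPT2 having an adjusted p of 0.114, HADHB of 0.0589 and ETFDH of 0.130 (limma). Leaving out each library gave 4 to 6 upregulated and 1 to 2 downregulated (2611 to 2771 and 2492 to 2632 of 16298 genes in all). Same-numbered libraries did not deviate together (correlations -0.05 to -0.00 and 0.01 to 0.06). That does not show whether they were prepared together, which the labels do not say. With a replicate block, 1 enzyme was downregulated after silencing (2744 of 16298 genes in all), with adjusted p-values of 0.0665 for CPT2 and 0.0664 for ETFDH (limma). The counts of enzymes for SK/EPI against SK-BR-3 were the same. The causes were not tested. ETFDH and CPT2 rest on 175 to 532 reads a library.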

Other observations

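SLC25A20, the carrier that takes acylcarnitine across the inner membrane between CPT1A and CPT2, was listed at 0 in all 12 libraries. The annotation and the treatment of reads that map to several places are not given in the sources used here, so this 0 is not read as a level of expression. ETFB, which forms the electron transfer flavoprotein with ETFA, stood at 1.04 ± 0.178 FPKM in SK-BR-3 and 1.05 ± 0.125 in SK/EPI. ETFA stood at 52.8 ± 2.60 and 34.4 ± 0.655 FPKM (mean ± SD, n = 3). The values are scaled to 6526 exonic bases for ETFB and 5031 for ETFA. Of those of ETFB, 6.36% are shared with other genes, mostly AC008750.8 on the same strand. Since the counting is not given, the levels are not read as a ratio of subunits. ETFA fell in SK/EPI (log2 fold change -0.60; limma, adjusted p = 3.58e-06) and rose after silencing (0.23; adjusted p = 0.00295). ACADS, the short-chain dehydrogenase, did not exceed 0.166 FPKM in any library, and PPARGC1A, a coactivator of mitochondrial genes, did not exceed 0.0145. These genes were named after their values were seen.

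ESRRA, a nuclear receptor of energy metabolism, fell from 52.0 ± 2.69 to 41.6 ± 0.571 FPKM in SK/EPI (log2 fold change -0.31; limma, adjusted p = 0.000189) and rose from 39.8 ± 0.954 to 51.1 ± 1.57 FPKM after silencing (0.35; adjusted p = 0.000115), and 9.37% of its exonic bases are shared with TRMT112. PPARA rose in SK/EPI from 1.62 to 2.89 FPKM (0.57; adjusted p = 2.69e-05) and stood at 3.00 and 2.99 FPKM in SK/EPI-siControl and SK/EPI-siBCRP (adjusted p = 0.936). Both were named after their values were seen.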
